A study of Mus musculus with 19 samples.

Results

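The effect of a retinoic acid diet on open chromatin was examined over both Foxc1 genotypes at once. All 11 libraries with the diet in their title were set against all 8 without it, which together are all 19 libraries of the series, and the 2 genotypes were kept as separate strata. The groups were Control+RAdiet (n = 5, Foxc1 WT, RA diet), Mutant+RAdiet (n = 6, Foxc1 hith/LacZ, RA diet), Control (n = 4, Foxc1 WT, no diet) and Foxc1Mutant (n = 4, Foxc1 hith/LacZ, no diet). The hith allele of Foxc1 is hypomorphic and the LacZ allele carries an inserted reporter. Each library is a bulk ATAC-seq profile, made by a transposase that inserts adapters into open DNA, of neural progenitors. These were taken from the forebrain of mouse embryos at day 14 with magnetic beads that bind Prom1. The dose and duration of the diet are not given in the sources used here, nor is the sex of the embryos. The genotype label of Foxc1Mutant 1 reads Foxc1 WT, against its title. Whether each library is from its own animal is not stated, so the spread behind the p-values is that between libraries and may be technical. A change is reported as a diet effect only where its direction was the same in controls and in mutants.

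Retinoic acid is made from vitamin A by retinaldehyde dehydrogenases. In the embryonic forebrain the meninges, whose formation needs Foxc1, are a main source of it. Inside the cell it binds the receptors RARA, RARB and RARG, which pair with RXR partners on DNA and exchange corepressors for coactivators, and enzymes of the Cyp26 family break it down. The title of the series names Notch and Sox2, both of which keep progenitors from differentiating, as the targets under study.

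For each library the authors' file lists peak summits, each with a -log10 q score. Each list was cut to its 29112 highest scores, as many as the shortest list has. Summits at most 200 bp apart were chained into regions. A region's presence, the number of matched summits per gene, and the rank of a region among the 13035 regions found in all 19 libraries were then compared; rank 1 is the strongest site of a library. Ranks gave the only called differences, at 46 regions, 14 of which lie in a promoter window (250 bases before to 50 after a gene's start, from RefSeq, build GRCm38.p6). The promoters are printed for the 4 called regions with the smallest p that ranked higher on the diet, and for 3 of the 4 with the smallest p that ranked lower. Capitals mark the bases between the first and last summit of the called region, as far as they lie in the window. The place of the open site relative to the start can so be seen. Regions that reach well beyond the window are those of Cwc22 (86 of 453 bases in it), Raly (129 of 232) and Eif3j1 (243 of 286). The windows that ranked higher on the diet are Raly (chr2:154790860-154791159, + strand), Camsap1 (chr2:25983233-25983532, - strand), Eif3j1 (chr2:122028330-122028629, + strand) and Dnpep (chr1:75317588-75317887, - strand).
Raly: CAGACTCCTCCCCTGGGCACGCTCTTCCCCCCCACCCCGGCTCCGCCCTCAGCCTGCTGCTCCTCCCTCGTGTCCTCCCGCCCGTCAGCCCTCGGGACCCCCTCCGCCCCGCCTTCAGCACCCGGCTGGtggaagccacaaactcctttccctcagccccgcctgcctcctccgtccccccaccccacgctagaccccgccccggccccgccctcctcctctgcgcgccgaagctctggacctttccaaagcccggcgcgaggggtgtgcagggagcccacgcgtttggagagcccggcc
Camsap1: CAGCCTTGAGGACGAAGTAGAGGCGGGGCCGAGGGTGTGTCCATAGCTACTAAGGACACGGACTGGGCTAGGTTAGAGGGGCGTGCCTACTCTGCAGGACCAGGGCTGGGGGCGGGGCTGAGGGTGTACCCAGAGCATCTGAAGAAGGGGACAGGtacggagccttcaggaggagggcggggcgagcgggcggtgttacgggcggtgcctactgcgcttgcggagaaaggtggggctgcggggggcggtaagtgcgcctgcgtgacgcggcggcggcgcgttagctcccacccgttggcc
Eif3j1: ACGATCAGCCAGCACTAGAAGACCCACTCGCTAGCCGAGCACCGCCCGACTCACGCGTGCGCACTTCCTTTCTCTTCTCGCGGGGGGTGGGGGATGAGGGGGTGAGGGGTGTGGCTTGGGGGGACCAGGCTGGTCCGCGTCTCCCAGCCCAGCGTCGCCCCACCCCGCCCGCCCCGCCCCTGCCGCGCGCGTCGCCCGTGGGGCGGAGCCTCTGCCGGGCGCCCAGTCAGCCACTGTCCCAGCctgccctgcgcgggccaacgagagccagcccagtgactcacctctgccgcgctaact
Dnpep: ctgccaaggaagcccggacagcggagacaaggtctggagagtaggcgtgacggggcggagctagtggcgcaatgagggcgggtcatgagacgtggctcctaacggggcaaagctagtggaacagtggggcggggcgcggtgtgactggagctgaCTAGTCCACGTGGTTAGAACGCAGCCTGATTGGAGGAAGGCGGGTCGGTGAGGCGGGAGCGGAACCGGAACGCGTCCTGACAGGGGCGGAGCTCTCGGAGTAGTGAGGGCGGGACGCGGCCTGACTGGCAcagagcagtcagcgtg
The printed windows that ranked lower on the diet are Cwc22 (chr2:77946307-77946606, - strand), Zbed5 (chr5:129895473-129895772, + strand) and Rab5b (chr10:128696219-128696518, - strand).
Cwc22: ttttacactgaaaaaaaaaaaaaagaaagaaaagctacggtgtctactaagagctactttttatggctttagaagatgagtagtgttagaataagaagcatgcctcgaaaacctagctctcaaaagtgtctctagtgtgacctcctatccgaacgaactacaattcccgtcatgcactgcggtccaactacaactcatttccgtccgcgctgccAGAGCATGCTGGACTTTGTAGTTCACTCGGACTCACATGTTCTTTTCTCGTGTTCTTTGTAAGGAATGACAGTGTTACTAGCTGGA
Zbed5: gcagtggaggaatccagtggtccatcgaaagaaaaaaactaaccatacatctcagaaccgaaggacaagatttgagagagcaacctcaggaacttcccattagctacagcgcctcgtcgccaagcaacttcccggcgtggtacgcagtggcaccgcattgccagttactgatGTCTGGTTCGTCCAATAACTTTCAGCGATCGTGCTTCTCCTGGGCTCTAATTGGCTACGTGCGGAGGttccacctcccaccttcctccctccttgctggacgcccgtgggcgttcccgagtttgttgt
Rab5b: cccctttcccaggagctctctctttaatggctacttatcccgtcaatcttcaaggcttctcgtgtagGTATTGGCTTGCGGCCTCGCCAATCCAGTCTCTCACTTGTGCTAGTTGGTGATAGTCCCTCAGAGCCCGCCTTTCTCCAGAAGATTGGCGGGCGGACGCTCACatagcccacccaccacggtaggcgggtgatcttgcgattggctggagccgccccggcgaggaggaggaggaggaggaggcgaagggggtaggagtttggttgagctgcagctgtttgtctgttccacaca

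Letters of the receptors' binding site were searched in these windows. AGGTCA, the core hexamer bound by RAR and RXR, was searched on both strands and occurs in 2 of the 14 promoter windows with a called region, against 16.3% of 32817 promoter windows of the same length. The windows are those of Cwc22 and Atp5e, of which Cwc22 is printed. The variant GGTTCA occurs in 1 of 14, against 10.4% of all windows. A direct repeat of AGGTCA with 5 bases between, the arrangement best known for retinoic acid receptors, is in none of the 14 and in 3 of the 32817. A match or its lack describes these letters only.

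Libraries differed in ways that touch the results. Diet libraries held 29112 to 91114 deposited summits (mean 70148.5 ± 20266.5, SD, n = 11) and no diet libraries 49804 to 122591 (mean 96967 ± 24727.3, SD, n = 8). The difference within genotype averaged -26181 summits, with -20751 in controls and -31610 in mutants (two-sided exact permutation within genotype, exact p = 0.0218, adjusted p = 0.109 over 5 library measures). It passed without Foxc1Mutant 3 and 4 (-34317, exact permutation adjusted p = 0.0191). The median score, the shares of matched summits near gene ends or over 100 kb from them, and the number on chromosome Y did not pass (exact permutation adjusted p = 0.216 to 0.948). The number of reads is unknown, so depth was not measured directly. The lowest score kept after the cut to 29112 also differed between libraries. It was 1.30 (Mutant+RAdiet 4, whose whole list was kept) to 33.8 (Control+RAdiet 4) in diet libraries. In no diet libraries it was 5.42 (Foxc1Mutant 4) to 53.7 (Control 4), so the ranges overlapped. The part of this lowest score in the differences was not tested. Chromosome Y carried 4 matched summits in each of 6 of the 11 diet libraries (Control+RAdiet 1 to 4, Mutant+RAdiet 1 and 4) and 4 in 1 of the 8 no diet libraries (Control 1), and none in the others. Chromosome X carried 663 to 706 matched summits in diet libraries and 629 to 649 in the no diet libraries other than Foxc1Mutant 3 and 4, which held 743 and 722. Set against the progenitor label, all 9 defining radial glia and neural stem cell genes had matched summits, 39 to 48 in sum per diet library and 37 to 45 per no diet library. Defining markers of other neural cells had matched summits as well. Projection neurons had 5 of 5 (17 to 25 in sum per diet library, 20 to 27 per no diet library) and intermediate progenitors 3 of 3 (10 to 13 and 10 to 14). The ganglionic eminence had 6 of 6 (8 to 12 and 8 to 11), and cortical hem and choroid plexus 5 of 5 (9 to 14 and 7 to 13). Defining markers of non-neural cells had matched summits too: 5 of 5 for microglia and macrophages (4 to 9 in sum per diet library, 5 to 7 per no diet library), 4 of 4 for mural cells (1 to 6 and 3 to 6), 4 of 5 for meningeal fibroblasts (4 to 7 and 4 to 8), 3 of 5 for endothelium (6 to 9 and 4 to 8) and 1 of 4 for erythroid cells (1 in each library). Those with none in any library were Lum (meningeal fibroblast), Tek and Cldn5 (endothelial) and Gata1, Hbb-bt and Alas2 (erythroid). In bulk samples, fewer cells of a type and less open chromatin per cell cannot be told apart.

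**Figure D1:**
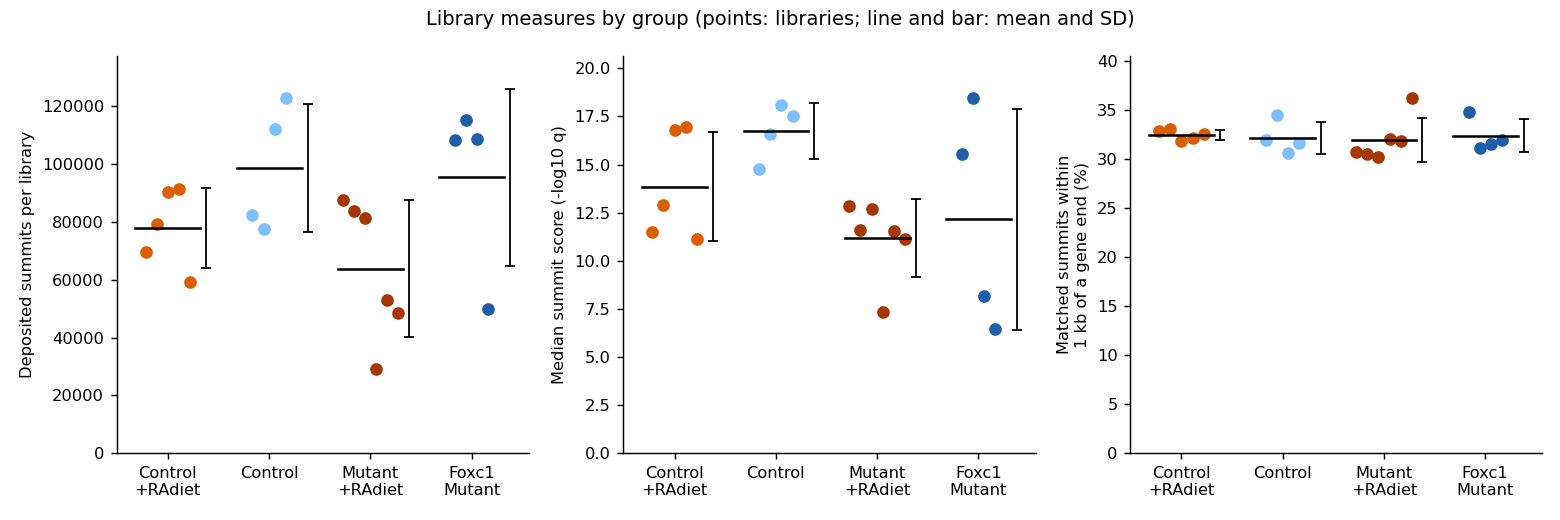
Deposited summits, median summit score (-log10 q) and percentage of matched summits within 1 kb of a gene end, for the libraries of each group; points are libraries, the line is the mean and the bar the SD. Summit numbers of the diet groups lie lower on average (70148.5 against 96967) with overlap, Mutant+RAdiet 4 (29112) and Foxc1Mutant 4 (49804) being the shortest lists of their groups, and the near-end share is alike (means 32.2% and 32.3%).

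Ranks of the shared regions moved with the diet at 46 of 13035 regions (0.353%), 33 of them higher on the diet (0.253%) and 13 lower (0.0997%), in limma on normal scores of the rank with the contrast averaged over genotypes (adjusted p = 0.0207 to 0.0475). All 46 had the same direction in both genotypes. Their differences ran up to 1.43 and down to -1.43 on the normal-score scale, where 1 is the spread of all regions within a library. At unadjusted p under 0.05 limma found 2234 regions (17.1%), of which 1125 rose and 1071 fell in both genotypes. No region passed within controls alone or within mutants alone, where 827 and 2156 regions had an unadjusted limma p under 0.05. A difference of the diet effect between mutants and controls was called at no region (limma interaction, smallest adjusted p = 0.927, 565 regions at unadjusted p under 0.05). This does not show that the effect was alike in both. An exact permutation test per region, over 26460 relabelings within genotype, called 76 regions, 31 of them among the 46. Regions named in the text that it did not call are those of Cwc22, Sox5, Foxp2, Anks1b, Dnpep and Eif3j1. It also did not call the site 61363 bp from Zfp330 (exact permutation adjusted p = 0.0510 to 0.0818 for these regions). Diet and no diet libraries did not overlap at all at 9 of the 46, against 14 of all 13035 regions (0.107%).

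These calls are sensitive to single libraries. The number called was 0 without Control+RAdiet 3 or without Control 4, and 1 without Control 3. It was 10, 14, 17, 18, 20, 20, 23 and 26 without Control+RAdiet 2, Mutant+RAdiet 2, Control+RAdiet 4, Mutant+RAdiet 1, Mutant+RAdiet 3, Control 2, Mutant+RAdiet 4 and Mutant+RAdiet 5. It was 72, 83, 98, 130 and 753 without Foxc1Mutant 2, 4, 1, 3 and Mutant+RAdiet 6. Without Foxc1Mutant 3 and 4 together, 390 regions were called, including 40 of the 46. With a term for libraries that carry chromosome Y summits, 0 were called (limma, smallest adjusted p = 0.229, 1195 regions at unadjusted p under 0.05). A fit of only the libraries without such summits leaves 1 Control+RAdiet library (Control+RAdiet 5). It therefore cannot decide which calls remain, and no number called is given for it. The sign of all 46 differences was kept in each of these fits. With the chromosome Y term their size was 0.717 to 1.14 times that of the fit without it.

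**Figure D2:**
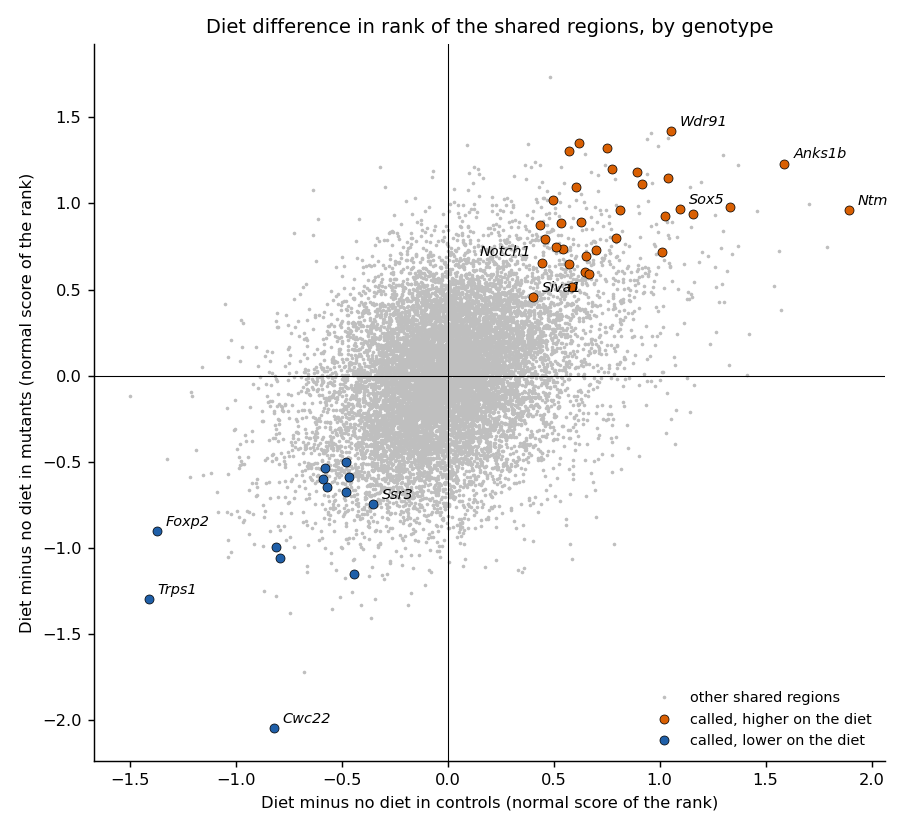
Diet minus no diet in mutants (vertical axis) against the same in controls (horizontal axis), as normal scores of the rank, for the 13035 regions shared by all libraries; larger points are the 46 called regions, orange higher and blue lower on the diet. All called points lie in the corners where both genotypes agree in sign, as do 61.7% of all regions.

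Among regions that ranked higher on the diet, the one with the smallest p sits at the promoter of Raly, an RNA-binding protein. Its rank was 608, 546, 315, 338 and 714 in Control+RAdiet and 125 to 725 in Mutant+RAdiet (median 529.5), against 1058, 2090, 884 and 1828 in Control and 1914, 1689, 1671 and 1825 in Foxc1Mutant. Every library on the diet ranked stronger there than every library without it (difference 0.64 ± 0.11, SE, limma adjusted p = 0.0207). A region inside Def6, which encodes a guanine nucleotide exchange factor for small GTPases, split the libraries as cleanly, with ranks of 3614 to 8020 on the diet (median 6631) and 8647 to 12569 without it (median 10245.5). So did a region inside Sergef, with ranks of 2115 to 5372 on the diet (median 3251) and 5509 to 9881 without it (median 6889.5). Grik3 encodes a kainate receptor subunit, Wdr91 an endosomal protein and Ano1 a chloride channel. The regions inside these genes rose by 0.63 ± 0.12, 1.24 ± 0.23 and 0.80 ± 0.15 (SE, limma adjusted p = 0.0207 each). Their diet and no diet libraries overlapped.

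Single called regions also lay at genes of the progenitor and neuron lists, whose shared regions within 100 kb went both ways. Of 37 such regions of the projection neuron list, 1 was higher and 6 were lower at an unadjusted limma p under 0.05 (median difference -0.05), and of 22 of the intermediate progenitor list, 2 were higher and 3 lower (median -0.03). Of the 11265 shared regions within 100 kb of any gene, 912 were higher and 940 lower at that p (median -0.01). None of the regions of either list was called: the called sites of Sox5, Cux1, Foxp2 and Tcf12 lie over 100 kb from a gene end. Ttyh1, a membrane protein of neural stem cells, had a site 4470 bp inside the gene with ranks of 987 to 3461 on the diet (median 1698) and 3108 to 5723 without it (median 3734.5), a difference of 0.63 ± 0.12 (SE, limma adjusted p = 0.0207). Sox5, a transcription factor of progenitors and deep-layer neurons, had a site deep in the gene with ranks of 2448 to 10056 on the diet (median 4641) and 7951 to 11910 without it (median 10043.5). The weakest diet library there was Mutant+RAdiet 6. Tcf12, a partner of proneural factors, had a site with ranks of 1978 to 8840 on the diet (median 6582) and 8914 to 12559 without it (median 9917), with no overlap. At Cux1, a gene of upper-layer neurons, ranks were 6989 to 11262 on the diet (median 9920) and 11502 to 12605 without it (median 12291), also with no overlap. Differences at Sox5, Tcf12 and Cux1 were 1.03 ± 0.19, 0.99 ± 0.19 and 0.85 ± 0.19 (SE, limma adjusted p = 0.0207, 0.0207 and 0.0407). Chosen after its values were seen, a site 420 bp inside Nr1h2, the liver X receptor beta and itself a partner of RXR, had ranks of 1904 to 7236 on the diet (median 5122) and 8074 to 12795 without it (median 9058), again with no overlap (difference 0.99 ± 0.19, SE, limma adjusted p = 0.0207).

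Regions that ranked lower on the diet were fewer and sat mostly at promoters. At Ssr3, a subunit of the complex that helps proteins enter the endoplasmic reticulum, ranks were 1471, 1428, 2022, 1589 and 1751 in Control+RAdiet and 1454 to 2436 in Mutant+RAdiet (median 2165), against 1030, 871, 858 and 763 in Control and 969, 963, 352 and 179 in Foxc1Mutant. All diet libraries lay below all no diet libraries in strength (difference -0.55 ± 0.10, SE, limma adjusted p = 0.0207). Rab5b (early endosome GTPase), Atp5e (a subunit of ATP synthase), Zbed5, Zfp330 and Zfp873 had lower-ranked promoters as well, with differences of -0.49 ± 0.10, -0.53 ± 0.12, -0.56 ± 0.11, -0.61 ± 0.13 and -0.58 ± 0.12 (SE, limma adjusted p = 0.0240 to 0.0407). Of these, only the Zfp330 promoter had no overlap between diet and no diet libraries. A site 61363 bp from Zfp330 moved the other way (0.86 ± 0.19, SE, limma adjusted p = 0.0434). A region in no gene, 106889 bp from the nearest one, Trps1 (a GATA-type repressor), ranked 11398 to 13029 on the diet (median 12775) and 6499 to 12750 without it (median 10181.5), a difference of -1.35 ± 0.26 (SE, limma adjusted p = 0.0207). Foxp2, a transcription factor of deep-layer neurons, had a region inside the gene that ranked 10280 to 13014 on the diet (median 12563) and 8373 to 10739 without it (median 9624.5), a difference of -1.14 ± 0.26 (SE, limma adjusted p = 0.0444).

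The largest fall was at the promoter of Cwc22, a splicing factor whose segment of chromosome 2 is known to vary in copy number between mouse strains. Ranks there were 10879, 10769, 12343, 10969 and 3911 in Control+RAdiet and 6480 to 12480 in Mutant+RAdiet (median 11138.5), against 3857, 9620, 1735 and 10746 in Control and 2237, 2034, 1309 and 2219 in Foxc1Mutant. Control+RAdiet 5 ranked among the no diet libraries, and Control 2 and 4 ranked among the diet libraries. The difference was -1.43 ± 0.27 (SE, limma adjusted p = 0.0207, exact permutation adjusted p = 0.0818), -0.82 in controls and -2.05 in mutants. The part of copy number in it was not tested.

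**Figure D3:**
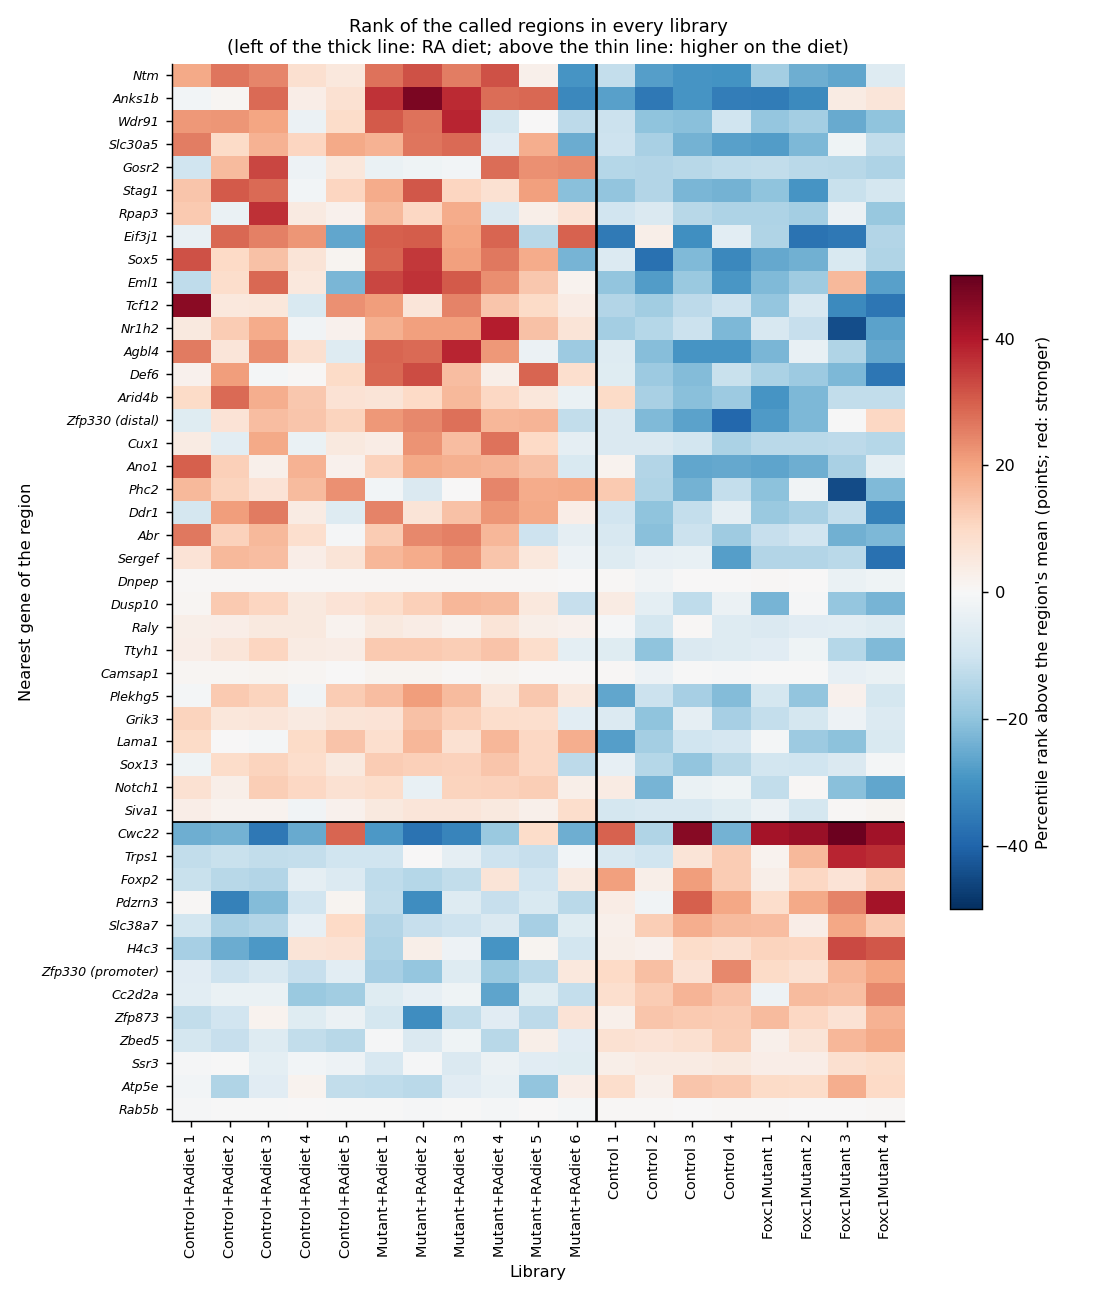
Percentile rank of each called region minus that region's mean over all libraries (points; red stronger, blue weaker), with one line per region and one column per library. Diet libraries stand left of the thick line and no diet libraries right of it; Mutant+RAdiet 6 is blue at several regions where the other diet libraries are red, and Foxc1Mutant 3 and 4 are pale or red at Anks1b.

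The distance of called regions from genes was as follows. Of the 33 regions higher on the diet, 26 lay over 1 kb from the nearest end of a protein-coding gene, whereas 9 of the 13 lower ones lay within 1 kb, where 48.4% of all shared regions lie. Among the 6314 shared regions within 1 kb of a gene end, 0.111% were called higher and 0.143% lower. These shares were 0.427% and 0% of the 1641 regions at 1 to 10 kb, 0.393% and 0.0302% of the 3310 at 10 to 100 kb, and 0.339% and 0.169% of the 1770 beyond 100 kb. The share called lower was thus no smaller beyond 100 kb than within 1 kb, on 3 and 9 regions. The median difference of all regions was -0.03 within 1 kb, 0.00 at 1 to 10 kb, 0.02 at 10 to 100 kb and 0.05 beyond.

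Base composition differed between promoters called higher and promoters called lower. Over all promoter regions it went with the diet difference mainly in controls. The 5 promoter windows with a region higher on the diet held 65.7% to 73.7% G and C (median 69%), and the 9 with a region lower on the diet held 42% to 66% (median 52.7%). Over all 5478 shared regions in a promoter window, the Spearman correlation of the window's GC content with the diet difference was 0.177, a description over sites that share libraries and depth. It was 0.277 for the difference in controls and 0.0493 for that in mutants. Among the 1431 regions with the least GC the median difference was -0.08 (-0.12 in controls, -0.05 in mutants), and among the 1370 with the most it was 0.02 (0.04 in controls, -0.02 in mutants). The part of GC content in the calls was not tested.

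The Notch and retinoic acid loci, described for their part in the question of the series, gave 1 called region among 64 shared regions near their genes, Sox2 or Foxc1, beside 0.353% of all shared regions. It lies inside Notch1, the receptor (chr2:26500931-26500959, 2877 bp from a gene end). Ranks there were 2399, 3020, 1800, 2045 and 2379 in Control+RAdiet and 1759 to 3886 in Mutant+RAdiet (median 2087.5), against 2853, 6410, 3818 and 3662 in Control and 5006, 3281, 6082 and 6766 in Foxc1Mutant. The diet libraries were stronger on the whole, but the groups overlapped within each genotype. The difference was 0.55 ± 0.13 (SE, limma adjusted p = 0.0475), 0.45 in controls and 0.65 in mutants, and it was called in 5 of the 19 fits that each left out a library. Without Foxc1Mutant 3 and 4 it was 0.43 (limma adjusted p = 0.059). Of the 64 regions, 6 (9.38%) had an unadjusted limma p under 0.05 with the same direction in both genotypes, 3 higher and 3 lower, beside 17.1% of all shared regions at that p whether or not the genotypes had the same sign. A second site inside Notch1 (0.47 ± 0.19) and one inside Maml2, a coactivator of Notch (0.66 ± 0.21), were higher at that threshold. Sites near Sox2 (-0.50 ± 0.24, 7318 bp from the gene), Rxrg (-0.42 ± 0.17) and Zfp703 (-1.02 ± 0.32) were lower (SE, limma adjusted p = 0.107 to 0.285).

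Across regions found in only some libraries, presence of a matched summit passed at none. Of 44878 regions, 13035 (29%) were present in all libraries, and 17247 were present in 4 to 15 libraries and were tested. The stratified exact test called 0 of them (0%, smallest adjusted p = 0.299), with 1815 (10.5%) at an unadjusted p under 0.05, 863 gained on the diet in both genotypes and 932 lost. Limma on presence, with the median score or the chromosome Y term added, also called 0, with 2025 and 1522 at an unadjusted p under 0.05. Of 15042 regions with a difference in both genotypes, 65.8% had the same sign in both.

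The cleanest of these regions give an idea of what such a difference is. A region inside Lix1, a gene of the embryonic brain (chr17:17409168-17409287), had a matched summit in 5 of 5 Control+RAdiet and 6 of 6 Mutant+RAdiet libraries, and in 0 of 4 Control and 0 of 4 Foxc1Mutant libraries. The region nearest Sall1, a zinc finger gene (chr8:89073066-89073212, 28977 bp from the gene), showed the reverse, with 0 of 5 and 0 of 6 on the diet and 4 of 4 and 4 of 4 without it. Both have the smallest p that the design allows (exact p = 3.78e-05, adjusted p = 0.299). Of the 8 libraries without the Lix1 summit, 5 had a deposited summit in that region below the matched length and 8 had one within 1 kb. Of the 11 without the Sall1 summit, 5 and 10 did. A matched summit that is missing is thus often a weaker or shifted summit in the deposited list. A region 8380 bp from Meis2, which retinoic acid is known to induce in limbs, was matched in 0 of 5 and 0 of 6 diet libraries and in 2 of 4 Control and 4 of 4 Foxc1Mutant libraries (exact p = 0.000794, adjusted p = 0.299).

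Regions chosen in one genotype were then read in the libraries of the other, which took no part in the choice. A region was chosen where its presence differed by at least 75 percentage points between diet and no diet in the choosing genotype. The 288 regions lost in mutants were matched less often in controls on the diet, in 34.7%, 27.1%, 23.6%, 36.8% and 31.6% of cases in Control+RAdiet against 43.4%, 41.7%, 66.0% and 68.1% in Control. The groups did not overlap (difference -24.0 points, two-sided exact permutation p = 0.00794, the smallest that 126 relabelings allow, adjusted p = 0.0317 over 4 sets). It did not pass with all deposited summits (-28.6 points, exact permutation adjusted p = 0.0952), nor without the library that has the shortest list (-21.8 points, exact permutation adjusted p = 0.0635). It did not pass in 11 of the 19 repeats that each left out 1 library. Fewer relabelings are possible only where that library is a control. All 126 remain without Mutant+RAdiet 5, Foxc1Mutant 1 or Foxc1Mutant 2, and it did not pass there either (exact permutation adjusted p = 0.0635, 0.111 and 0.222). Without Foxc1Mutant 2 the difference was -8.69 points. The 255 regions gained in mutants were matched in 54.9% to 85.5% of cases in Control+RAdiet (mean 70.9% ± 13.1, SD, n = 5) and 24.7% to 61.2% in Control (39.2% ± 17.2, SD, n = 4). That difference of 31.7 points did not pass after adjustment (exact permutation p = 0.0397, adjusted p = 0.0794).

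Read in mutants, the sets chosen in controls split the libraries along another line. The 587 regions gained in controls were matched in 79.6%, 84.2%, 79.4%, 57.4%, 78.4% and 30.3% of cases in Mutant+RAdiet 1 to 6, against 22.5%, 17.9%, 64.2% and 60.6% in Foxc1Mutant 1 to 4. Mutant+RAdiet 6 stood with the no diet libraries, and Foxc1Mutant 3 and 4 with the diet libraries. The difference was 26.9 points (exact permutation adjusted p = 0.146) and, without Foxc1Mutant 3 and 4, 48.0 points (exact permutation adjusted p = 0.0357). The 589 regions lost in controls gave 14.9% to 37.0% in Mutant+RAdiet (median 21.7%) and 66.2%, 76.1%, 15.6% and 19.4% in Foxc1Mutant. This difference of -21.3 points (exact permutation adjusted p = 0.152) became -48.2 points without Foxc1Mutant 3 and 4 (exact permutation adjusted p = 0.0357). Foxc1Mutant 1, whose genotype label reads Foxc1 WT, stood with Foxc1Mutant 2 in both sets. The mean correlation with the Control libraries was 0.848 and 0.912 for Foxc1Mutant 1 and 2, and 0.646 and 0.658 for Foxc1Mutant 3 and 4. The no diet mutant group was thus mixed, and the cause was not tested.

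**Figure D4:**
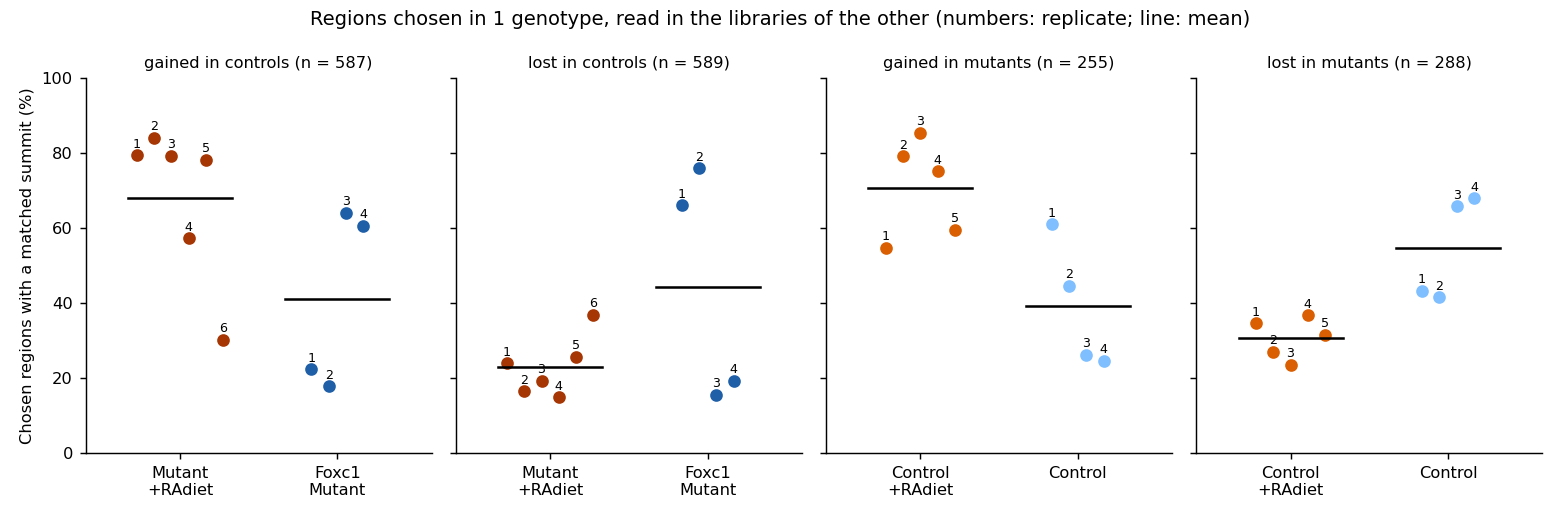
Percentage of regions with a matched summit per library, for regions gained or lost on the diet in 1 genotype and read in the libraries of the other; numbers are replicates and lines are means. In controls the regions lost in mutants separate Control+RAdiet (23.6% to 36.8%) from Control (41.7% to 68.1%); in mutants Foxc1Mutant 3 and 4 and Mutant+RAdiet 6 lie on the far side of their groups.

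The same sets were made from ranks, as regions whose ranks did not overlap between diet and no diet within 1 genotype; this comparison was added after the data were examined. The 89 regions higher in mutants had a mean normal score of 0.11 to 0.37 in Control+RAdiet and of -0.11 to 0.02 in Control, a difference of 0.26 with no overlap (exact permutation p = 0.00794, adjusted p = 0.0159 over 4 sets). The 159 regions lower in mutants gave -0.07 to 0.17 in Control+RAdiet and 0.18 to 0.46 in Control, a difference of -0.26 with no overlap (exact permutation p = 0.00794, adjusted p = 0.0159). The 372 regions higher and the 371 lower in controls differed by 0.34 and -0.16 in mutants and did not pass (exact permutation adjusted p = 0.152 and 0.257). Single regions of the sets kept their direction in the other genotype at 86.5% and 88.7% of the mutant sets, and at 84.1% and 65.8% of the control sets, against 61.7% of all shared regions.

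Summits per gene gave no called gene. Of 10828 genes with a mean of at least 1 matched summit, 3258 were alike in all libraries and 7570 were fitted on log2 of the count plus 0.5. Limma called 0 of them (0%, smallest adjusted p = 0.0614), with 758 (10%) at an unadjusted p under 0.05, of which 331 rose and 386 fell in both genotypes. The exact permutation test per gene also called 0, with 592 at an unadjusted p under 0.05. The interaction with genotype was called at 0 genes (limma, 343 at unadjusted p under 0.05). Without Foxc1Mutant 3 and 4, limma called 64 genes, 29 higher and 35 lower.

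The genes nearest to a call, none of which passed, differed by few summits. Psapl1, a prosaposin-like gene, had 3, 3, 4, 3 and 3 summits in Control+RAdiet and 3 to 5 in Mutant+RAdiet (median 4), against 2, 2, 2 and 3 in Control and 2 in each Foxc1Mutant library. Nkx1-1, a homeobox gene, had 2, 1, 3, 3 and 2 in Control+RAdiet and 2 or 3 in Mutant+RAdiet, against 1 in each no diet library. Their differences were 0.63 ± 0.11 and 0.80 ± 0.14 on the log2(count + 0.5) scale (SE, limma adjusted p = 0.0614 each). The direction depended on the list length. With all deposited summits it turned for 9 of the 10 genes named on this side (Psapl1 -0.36, Nkx1-1 -0.20), Vps52 being the exception. It turned for 0 of the 10 named with fewer summits on the diet. Those full lists are not matched, and diet lists were shorter on average. Dock10, an activator of small GTPases, averaged 1.91 ± 0.70 summits on the diet and 0.50 ± 0.53 without it (SD, n = 11 and 8, limma adjusted p = 0.0966). Xpo4, Cacna1b, Zfp62, Vps52, Abat, Brms1l and Tcerg1l, the others of the 10 with the smallest p on that side, had differences of 0.40 to 1.01 (limma adjusted p = 0.0679 to 0.173). Among those with fewer summits on the diet, Fgfrl1, an FGF receptor without a kinase domain, had 1 in all 11 diet libraries, against 1, 1, 2 and 2 in Control and 2 in each Foxc1Mutant library. Rad51c, a gene of DNA repair, had 1 in all 11 diet libraries, against 2 in each Control library and 1, 2, 1 and 1 in Foxc1Mutant. Daam1, a formin of Wnt planar polarity signalling, averaged 4.55 ± 1.04 summits on the diet and 7.12 ± 1.64 without it (SD, n = 11 and 8, limma adjusted p = 0.173). Cstad, Ralgapa2, Lyrm4, Lasp1, Lrrc30, Kif16b and Nufip1 were the other 7, with differences of -0.29 to -0.99 (limma adjusted p = 0.0679 to 0.173).

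**Figure D5:**
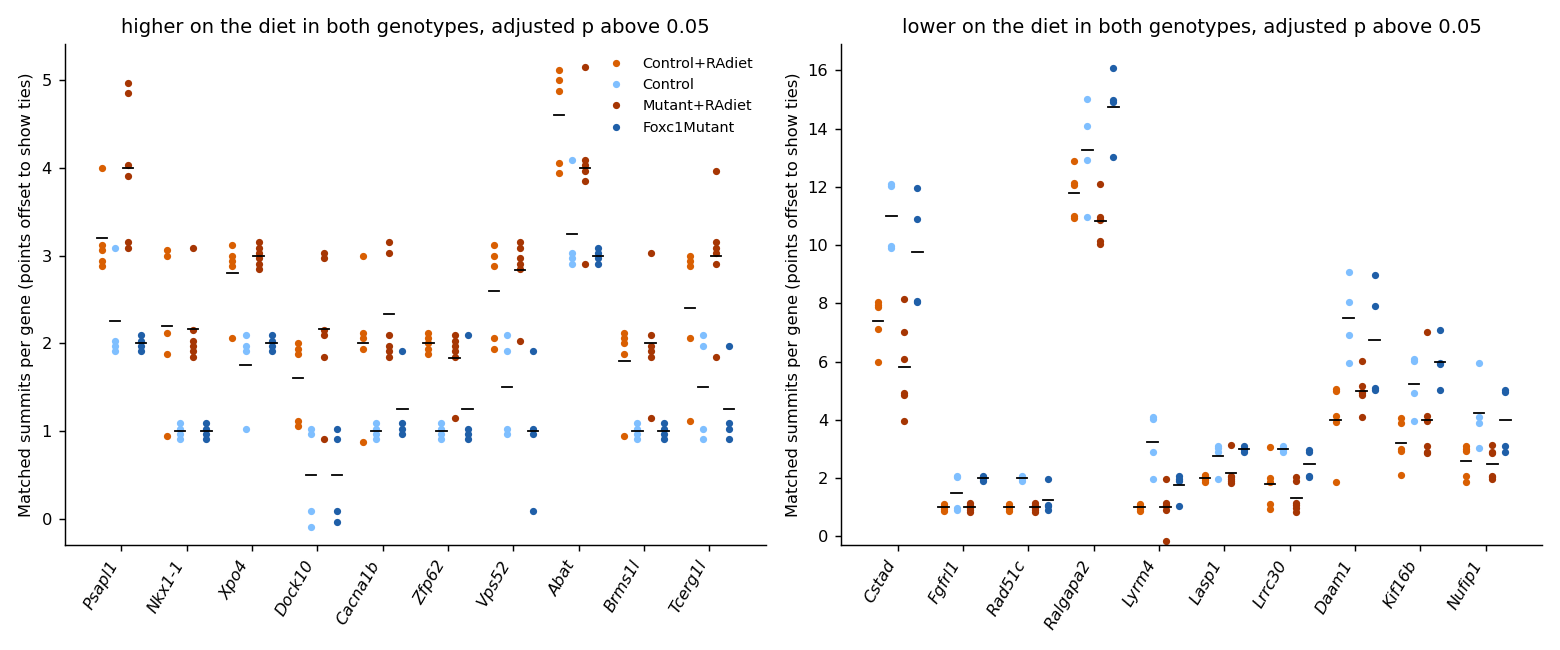
Matched summits per gene in each library (points, offset to show ties; lines are means) for the 10 genes with the smallest p on each side, with each diet group left of its no diet group. Nkx1-1 has 1 summit in all no diet libraries and 1 to 3 on the diet, and Fgfrl1 has 1 in all diet libraries and 1 or 2 without it.

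Genes of the retinoic acid pathway went both ways in summit numbers. Of 28 genes of the list, 20 were fitted: 12 had a positive and 8 a negative difference, 6 and 4 of them in both genotypes, and 0 had an unadjusted limma p under 0.05, against 10% of all genes. The list's median difference was 0.05, beside 0.00 for all genes, and the sum of its summits was 68 to 94 per diet library (median 79) and 74 to 86 per no diet library (median 75.5). Among the receptors, Rarb had 3 summits in each Control+RAdiet library and 2 or 3 in Mutant+RAdiet, against 1, 2, 3 and 3 in Control and 3, 3, 3 and 2 in Foxc1Mutant (difference 0.23 ± 0.14, SE, limma adjusted p = 0.605). Rara had 2 to 4 on the diet and 3 or 4 without it, and Rarg 1 to 3 and 0 to 2. Stra6, the membrane receptor that takes up vitamin A, averaged 2.09 ± 0.70 on the diet and 3.00 ± 1.31 without it (SD, n = 11 and 8, limma adjusted p = 0.599). Crabp1, which binds retinoic acid in the cell, had 1 summit in 3 of 5 Control+RAdiet and 5 of 6 Mutant+RAdiet libraries, against 0 of 4 Control and 1 of 4 Foxc1Mutant libraries. Its mean was 0.727 on the diet and 0.125 without it, too low for the main fit. A limma fit without the filter on low counts, which included Crabp1, called 0 genes. Of the enzymes, Cyp26a1, which degrades retinoic acid and is itself a known target of it, had no matched summit in any library, and Cyp26c1 had 2 in Mutant+RAdiet 6 and none in the other libraries. Cyp26b1 had 0 to 2 on the diet and 0 or 1 without it. Aldh1a2, the main synthetic enzyme of the meninges, had 0 to 2 in both. Of 14 Hox genes, 7 had a matched summit in any library, none of them called.

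Notch genes, Sox2 and Foxc1 likewise did not pass. Of 27 Notch pathway genes, 20 were fitted, 10 with a positive and 10 with a negative difference. Only 3 and 6 of these had that direction in both genotypes. The ligand Dll4 had 2 or 3 summits in diet and in no diet libraries, on average 2.82 ± 0.40 and 2.38 ± 0.52 (SD, n = 11 and 8, difference 0.21 ± 0.10, SE, limma unadjusted p = 0.0440, adjusted p = 0.473). The Dll4 difference was 0.02 in controls and 0.40 in mutants. Sox2, the progenitor transcription factor, had 10, 8, 8, 10 and 10 summits in Control+RAdiet and 7 to 10 in Mutant+RAdiet (median 8), against 8, 6, 5 and 7 in Control and 5, 7, 10 and 9 in Foxc1Mutant. Diet libraries were higher in controls (difference 0.48) and overlapped widely in mutants (0.13). The pooled difference was 0.31 ± 0.11 (SE, limma unadjusted p = 0.0144, adjusted p = 0.355). These 2 were the only ones of the 44 described genes that could be fitted to reach an unadjusted p under 0.05 (4.55%), both higher on the diet, against 10% of all genes in either direction and 4.69% higher. Foxc1 had 1 to 3 summits on the diet and 1 or 2 without it. A summit there does not check the genotype. Prom1, whose protein the beads bind, had 1 in each library but Mutant+RAdiet 4, which had 2.

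The remaining lists gave values in the same range. No list had a called gene. Radial glia and neural stem cell genes had 7 higher and 6 lower in both genotypes of 27 fitted, with 4 of the 27 higher at an unadjusted limma p under 0.05 and 0 lower. At that p, 355 of all 7570 fitted genes were higher and 403 lower. Of 66 shared regions near the radial glia and neural stem cell genes, 2 were called, those of Ttyh1 and Notch1, both higher, beside 0.353% of all shared regions. At an unadjusted limma p under 0.05, 10 of the 66 were higher and 7 lower, beside 912 and 940 of the 11265 shared regions within 100 kb of any gene. Cell cycle genes had 7 higher and 4 lower of 15 in both genotypes. All 6 fitted endothelial genes had a positive pooled difference, 2 of them in both genotypes, beside a positive difference at 3766 of all 7570 fitted genes. The 2 shared regions near endothelial genes had a median difference of -0.44, and 1 of them was lower at an unadjusted limma p under 0.05. Gliogenesis genes had 1 higher and 4 lower of 11 in both genotypes, and the 18 shared regions near them had a median difference of -0.17, beside -0.01 for the 11265 shared regions within 100 kb of any gene. Summed over a list, endothelial summits were 14 to 19 per diet library and 10 to 19 per no diet library, meningeal fibroblast summits 17 to 26 and 16 to 25, microglia and macrophage summits 11 to 20 and 9 to 18, mural summits 4 to 14 and 4 to 12, and erythroid summits 3 to 7 and 3 to 6. The part of these cells in the differences was not tested.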

How the data were processed

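Per the submitters' processing notes, the authors' tools include BWA, MACS2, Signac and DiffBind, with builds mm10 and GRCm38; versions and the role of each are not given in the sources used here. The deposited files hold 1 summit list per library, and each summit's score is the -log10 of a q-value as the authors' peak caller gave it. Read counts are unknown, so no counting intervals are given.

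From these lists the 29112 best summits per library were kept, summits at most 200 bp apart were chained, and each was assigned to the nearest of 21883 protein-coding RefSeq genes within 100 kb; called regions farther away are named by their nearest gene. Presence was tested in regions found in 4 to 15 libraries, by an exact conditional test stratified by genotype. Ranks (as normal scores) and log2(summits + 0.5) per gene, where genes averaged 1 or more, were fitted with limma 3.58.1 in R 4.3.3 (trend and robust options, 4 group means, diet contrast averaged over genotypes). Single values were tested by exact permutation within genotype (26460 relabelings). P-values were adjusted by Benjamini-Hochberg over the whole table, with a threshold of 0.05. Scripts were tested on simulated data.

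Members and gene lists were chosen with earlier results of these data known. Named were the 10 genes with the smallest p in each direction, the 8 shared regions with the smallest p in each direction, those at genes of a list, and genes of the retinoic acid, Notch and Hox lists with Sox2, Foxc1 and Prom1. Nr1h2, the second Zfp330 region and the regions at Lix1, Sall1 and Meis2 were chosen after their values were seen. A few results are not reported here. Same-numbered libraries were not treated as pairs in the main fits. Their deviations correlated by -0.338 to 0.408 over 25 pairs (mean 0.035), and 10 were over 0.1. Over 109 pairs with different numbers the mean was -0.006, and 28 were over 0.1. With the replicate number as a block, limma called 755 regions by rank, all 46 among them. Alternatives covered list length, chaining distance, filters, covariates and left-out libraries.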

Additional observations from a re-analysis of the deposited data

Results flagged for a closer look

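In 32 of the 164 group values examined, 1 library lay far from the others of its group by Dixon's criterion, which chance meets in about 1 in 20 groups. Values shared by few whole numbers, as with summits per gene, meet it easily. Foxc1Mutant 4 had 49804 deposited summits, Mutant+RAdiet 4 a median score of 7.33, and Mutant+RAdiet 6 36.2% of matched summits within 1 kb of a gene end and 14.3% over 100 kb away. Control+RAdiet 5 had 0 matched chromosome Y summits, unlike the other Control+RAdiet libraries, and Control 1 had 4, unlike the other Control libraries.

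Among called regions, Mutant+RAdiet 6 stood apart with ranks of 10056 at Sox5, 6373 at Ano1 and 3461 at Ttyh1, each weaker than in the other Mutant+RAdiet libraries. Ranks also stood apart at Ttyh1 in Control 2 (5485), at Sergef in Control 4 (8624) and Foxc1Mutant 4 (9881), at Cwc22 in Control+RAdiet 5 (3911), at Zfp873 in Control 1 (3982) and at Atp5e in Foxc1Mutant 3 (1939).

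Among summits per gene, the libraries that stood apart had 4 at Psapl1 (Control+RAdiet 3) and 3 (Control 4), 3 at Nkx1-1 (Mutant+RAdiet 5), 2 at Xpo4 (Control+RAdiet 4) and 1 (Control 3), and 2 at Cacna1b (Foxc1Mutant 1). Zfp62 had 1 in Mutant+RAdiet 6 and 2 in Foxc1Mutant 4. Vps52 had 2 in Mutant+RAdiet 4, Abat 4 in Control 4, Brms1l 1 in Control+RAdiet 2, Tcerg1l 2 in Foxc1Mutant 2, Rad51c 2 in Foxc1Mutant 2 and Lyrm4 1 in Foxc1Mutant 3. Lasp1 had 3 in Mutant+RAdiet 6 and 2 in Control 2, and Kif16b had 7 in Mutant+RAdiet 4.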

How the results depend on the processing

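Settings that concern chromosome Y, Foxc1Mutant 3 and 4, or the robust step were chosen after the data were examined. The number of called regions by rank (46) was 219 with the median score as covariate, 755 with the replicate number as a block, 0 with the chromosome Y term, 390 without Foxc1Mutant 3 and 4, 30 at a list length of 14556, 79 with the shortest list left out, 76 by exact permutation and 0 to 753 with 1 library left out. Called genes (0) numbered 3 with the median score, 2 without the robust step, 64 without Foxc1Mutant 3 and 4, 6 with genes alike in all libraries kept, 2 for gene bodies with 5 kb, 3 at a list length of 14556, 2 with the shortest list left out and 0 to 9 with 1 library left out. The replicate block called 0 genes. Presence stayed at 0 called regions under every alternative run.

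Deposited summits differed by -34317 and the median score by -4.35 without Foxc1Mutant 3 and 4 (exact permutation adjusted p = 0.0191 and 0.0156). With 1 library left out, summits differed by -33776 to -22175, the near-end share by -0.477 to 0.362 points and the remote share by -0.301 to 0.696. With Foxc1Mutant 1 counted as a control, the shares differed by 0.0939 and -0.129.

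Read in the other genotype, regions gained in mutants passed at 34.2 points with a list length of 14556, 21.7 with all deposited summits, 27.9 with the shortest list left out and 40.1 without Foxc1Mutant 3 and 4. Regions lost in mutants did not pass with all deposited summits (-28.6) or the shortest list left out (-21.8). Sets chosen in controls passed without Foxc1Mutant 3 and 4 (48.0 and -48.2). With 1 library left out, regions gained in controls gave 19.1 to 34.5, gained in mutants 21.2 to 39.0, and lost in mutants -28.4 to -8.69.

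Of the named genes, the log2 difference changed sign at a list length of 14556 for Xpo4 (-0.0368), Cstad (0.0407), Lasp1 (0.02002) and Daam1 (0.73). It did so with all deposited summits for Psapl1 (-0.36), Nkx1-1 (-0.20), Xpo4 (-0.30), Dock10 (-0.47), Cacna1b (-0.25), Zfp62 (-0.0614), Abat (-0.13), Brms1l (-0.30) and Tcerg1l (-0.67), and with the shortest list left out for Xpo4 (-0.20), Zfp62 (-0.0737) and Lrrc30 (0.17). The causes were not tested. Depth is unknown and limits all of these values.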
